A study of Rattus norvegicus with 24 samples.

Results

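Among 24 kidneys from a cystic rat line, 20 held at least 1000 CPM (estimated counts per 1000000 counts of the library) of Spp1, which encodes osteopontin. These 20 kidneys were taken as the set of high-osteopontin kidneys and ordered by their Lcn2 CPM. The 7 kidneys with the highest and the 7 with the lowest Lcn2 were set against each other, and every expressed gene was also correlated with Lcn2 over all 20. Because the kidneys were selected on Lcn2 and Spp1, all gene differences along the order are descriptions with no test. Tests were run only between treatment groups, for Lcn2 against measures of the libraries, and to find samples that stood apart in their group.

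All 24 animals were male rats aged 8 months and described as PKD/Mhm (Cy/+). This genotype is heterozygous for a mutation that changes an amino acid of Anks6, a protein of the primary cilium. The 4 treatment groups of 6 animals were Ctrl (untreated), CoCM, ipABCB5 and ivABCB5. The ipABCB5 and ivABCB5 animals were given human skin-derived ABCB5+ stromal cells once a month over 6 months, into the peritoneum or into a vein. The CoCM animals were given medium from a co-culture of such cells with macrophages derived from the human monocytic line THP-1. Every group was described as Cy/+, and no group without the mutation was compared here. The paper told Cy/+ rats from non-cystic ones by abdominal palpation, and the genotype of single kidneys was not tested here. One left kidney per animal was sequenced as whole tissue, and each sample was 1 animal.

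Lipocalin-2, encoded by Lcn2 and also known as NGAL, is a small secreted protein that binds iron-carrying bacterial siderophores. It is made by neutrophils and, after damage, by tubular epithelium, chiefly of the loop of Henle and the collecting duct, and its urinary level is used as an injury marker. Osteopontin is a secreted phosphoprotein of stressed and dilated tubules. Injured proximal tubule cells are known to lose transporters and mitochondrial enzymes while they gain adhesion molecules, chemokines and cytoskeletal proteins. Lcn2 transcription is known to be driven by NF-kappa B and C/EBP factors, which also act on genes of chemokines and adhesion molecules.

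The promoters of Lcn2 and of Icam1, which encodes the leukocyte adhesion molecule ICAM-1, are shown because both genes belong to the NF-kappa B list and Icam1 had one of the 12 highest correlations with Lcn2. They cover 250 bases before to 50 after the start of the gene and are RefSeq sequences of the rat assembly GRCr8, matched by gene identifier. The Lcn2 window lies at chr3:36081731-36082030 on the minus strand and the Icam1 window at chr8:27829595-27829894 on the plus strand, each written 5′ to 3′ along its gene. Capitals mark matches, on either strand, to an NF-kappa B motif, a STAT motif (TTCNNNGAA) or a C/EBP motif (TTGCNNAA).
Lcn2: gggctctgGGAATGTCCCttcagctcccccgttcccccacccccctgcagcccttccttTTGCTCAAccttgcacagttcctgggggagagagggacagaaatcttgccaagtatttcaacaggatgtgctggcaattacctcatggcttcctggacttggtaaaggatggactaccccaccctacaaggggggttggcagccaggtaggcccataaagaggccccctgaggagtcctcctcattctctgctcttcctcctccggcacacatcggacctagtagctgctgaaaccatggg
Icam1: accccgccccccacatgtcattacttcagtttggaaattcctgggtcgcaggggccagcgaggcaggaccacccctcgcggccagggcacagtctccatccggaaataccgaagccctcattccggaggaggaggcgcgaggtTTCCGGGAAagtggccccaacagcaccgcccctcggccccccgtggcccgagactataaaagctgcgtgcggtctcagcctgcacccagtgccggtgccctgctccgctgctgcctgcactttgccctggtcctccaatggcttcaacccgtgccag
The Lcn2 window held 1 NF-kappa B match that began 242 bases before the start and 1 C/EBP match that began 191 bases before it. The Icam1 window held 1 STAT match, 107 bases before the start, and no exact match to the other motifs. Letters close to the NF-kappa B motif, such as tggaaattcc in this window, were not counted. Absence of an NF-kappa B site was therefore not shown. Among all 27457 promoters of the table, 7.6% held the NF-kappa B motif, 8.68% the STAT motif and 10.5% the C/EBP motif. The matches are descriptions of letters, and no binding was measured.

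Total estimated counts were between 10209460 and 14125457 in the 20 kidneys, and 12396 of the 17334 genes had a mean of at least 1 CPM and were called expressed. Spp1 was 6609 CPM or more in each of the 20 kidneys and 546 CPM or less in the other 4, which were CoCM 39, ipABCB5 38, ivABCB5 36 and ivABCB5 37. In those 4 kidneys Lcn2 was between 7.17 and 9.14 CPM. No Ctrl kidney was among them.

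Lcn2 ran from 79.4 to 294.9 CPM over the 20 kidneys. At the high end, Ctrl 1 held 294.9 CPM and CoCM 26 held 261.9 CPM, and these stood above the rest. CoCM 40 (189.4 CPM), ipABCB5 29 (186.5 CPM), ipABCB5 30 (186.3 CPM), ivABCB5 28 (177.3 CPM) and CoCM 27 (157.0 CPM) completed the 7. The low end was made of ivABCB5 43 (117.0 CPM), CoCM 35 (105.4 CPM), Ctrl 22 (104.9 CPM), CoCM 34 (100.2 CPM), ipABCB5 41 (97.6 CPM), ipABCB5 31 (85.9 CPM) and Ctrl 24 (79.4 CPM). The order had no gap at either border: just outside the high end lay Ctrl 18 with 151.4 CPM, and just outside the low end lay Ctrl 23 with 120.0 CPM. Each kidney was 1 library, so neighbours in the order could not be compared with a replicate error.

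**Figure D1:**
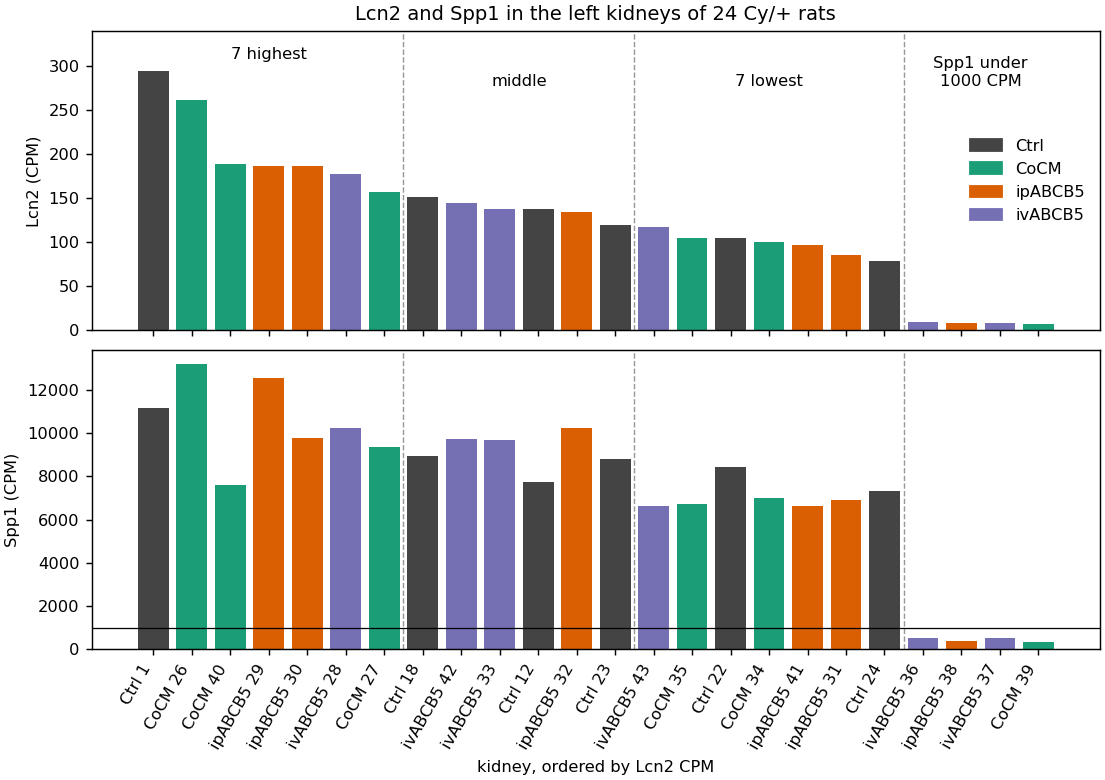
Lcn2 (top) and Spp1 (bottom) in CPM for each of the 24 kidneys, ordered by Lcn2 and coloured by treatment group, with dashed lines between the 7 highest, the 6 middle, the 7 lowest and the 4 kidneys under 1000 Spp1 CPM (horizontal line). Each of the 4 groups has a kidney at both ends, and the last 4 bars stand far below the others for both genes.

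Every treatment group had kidneys at both ends. The high end held 1 Ctrl, 3 CoCM, 2 ipABCB5 and 1 ivABCB5 kidney, and the low end held 2, 2, 2 and 1. The level of Lcn2 over all 24 kidneys was not shown to differ between treatments. The mean of log2(CPM + 1) was 7.09 in Ctrl, 6.56 in CoCM, 6.42 in ipABCB5 and 5.88 in ivABCB5 (n = 6 each), and the exact two-sided permutation p against Ctrl was 0.682, 0.455 and 0.273 (each 0.682 after Benjamini-Hochberg adjustment over the 3 comparisons). These means include the 4 kidneys with low Spp1, which were all in treated groups. Over the 20 kidneys alone the differences from Ctrl were 0.17 for CoCM, -0.04 for ipABCB5 and 0.08 for ivABCB5 on the log2 scale. They are given without a test, since the limit on Spp1 had removed the 4 kidneys with the lowest Lcn2, all of them treated.

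No gene was called between treatments by edgeR. An edgeR F-test over the 4 treatment groups called 0 of 12778 genes (0% at an adjusted p under 0.05), with 602 genes at an unadjusted p under 0.05, and DESeq2's likelihood ratio test called 10 of 15393. A p above the threshold does not show that the treatments act alike.

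Lcn2 was also compared with 3 measures of the libraries over the 20 kidneys. These kidneys had been chosen by Spp1, which had a rho of 0.77 with Lcn2, so the p-values describe these 20 only. Pearson's r was 0.39 with the total count (permutation p = 0.0884, rho 0.35), 0.43 with the number of genes that had a count (permutation p = 0.0575, rho 0.41) and -0.37 with the animal number (permutation p = 0.110, rho -0.23). After adjustment over the 3 relations each Pearson p was 0.110, and the Spearman p-values were 0.131, 0.0714 and 0.320 before it and 0.196, 0.196 and 0.320 after it. Without the 2 kidneys farthest from the median of each measure r was 0.31, 0.45 and -0.08. Total counts lay between 12348567 and 14125457 in the 7 high-Lcn2 kidneys and between 10209460 and 14049228 in the 7 low-Lcn2 kidneys. The part of depth in the gene differences was not tested.

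A gene was counted as separated when all 7 high-Lcn2 kidneys lay above, or all below, all 7 low-Lcn2 kidneys. By this rule 262 of 12396 genes (2.11%), Lcn2 included, were higher with Lcn2 and 248 (2.00%) were lower. Counts of separated members in the lists are to be read beside these shares. Leaving out any 1 of the 14 kidneys at the ends and refilling that end gave 148 to 248 higher and 40 to 122 lower genes, with the fewest of both without Ctrl 24. Spearman's rho with Lcn2 was 0.7 or more for 694 genes (5.60%) and -0.7 or less for 261 genes (2.11%). The median ratio of mean CPM, high-Lcn2 over low-Lcn2 kidneys, was 1.32 in the 262 genes and 0.599 in the 248. More expressed genes had a rho above 0 than below, and counts of signs in the lists are to be read beside this. Over all expressed genes the median rho was 0.10 and the median difference in log2(CPM + 1) was 0.06. The median rho was 0.0015 with TMM-scaled CPM (which corrects for the composition of a library), -0.023 with median-ratio size factors and 0 with TPM values, so the lean to the positive side did not hold under other scalings.

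The numbers depended on the scaling. With TMM-scaled CPM 105 genes were higher and 47 lower, with median-ratio size factors 141 and 63, and with TPM values 170 and 234. All 509 separated genes other than Lcn2 kept the sign of rho with TMM and with median-ratio scaling. So did the 504 of them that were expressed by TPM. They had been chosen as separated in the same kidneys, so a kept sign was close to certain. Of the 262 higher genes 75 stayed separated with TMM, 46 with median-ratio scaling and 93 with TPM values. Of the 248 lower genes 30, 12 and 156 did so. TMM scaling exchanged ivABCB5 43 at the low end, median-ratio scaling exchanged ivABCB5 43 and CoCM 27, and TPM exchanged CoCM 27.

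**Figure D2:**
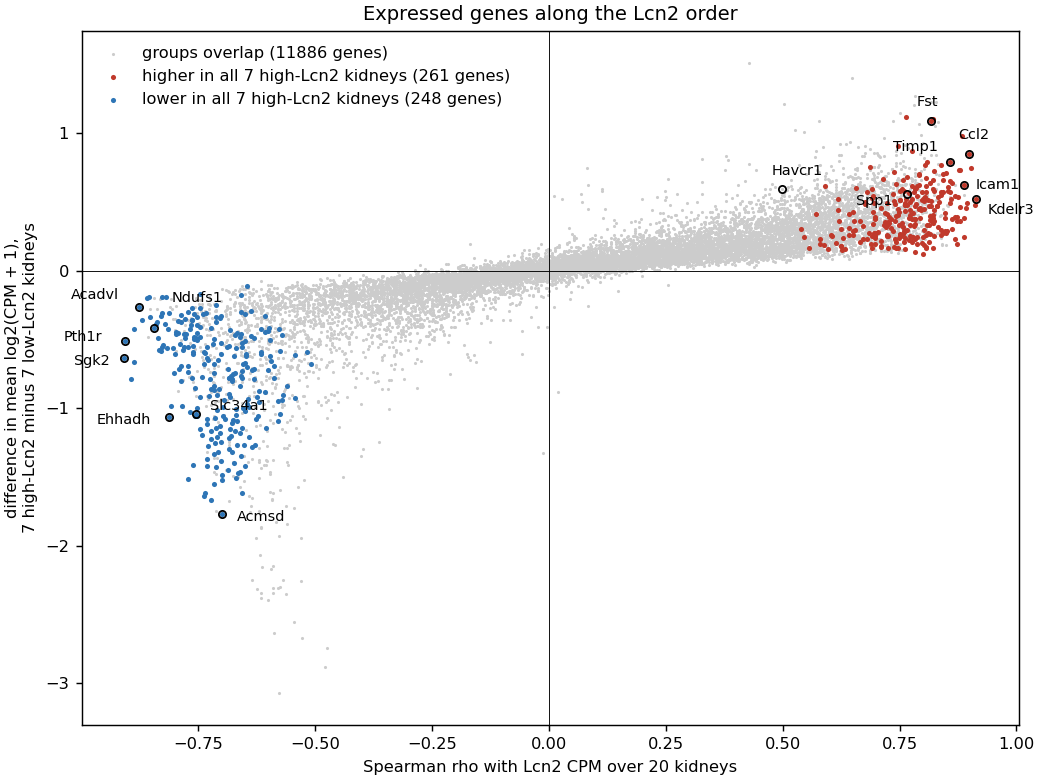
Spearman's rho with Lcn2 over 20 kidneys (x axis) and the difference in mean log2(CPM + 1) between the 7 high-Lcn2 and 7 low-Lcn2 kidneys (y axis) for each expressed gene other than Lcn2, with separated genes in colour. The 248 lower genes reach larger differences than the 261 higher ones, while Ccl2, Icam1 and Kdelr3 sit at the far right with differences under 1.

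The label of an injury order was checked against tubular injury genes. Havcr1 encodes KIM-1, the classical marker of the injured proximal tubule, and its level was 74.6 to 136 CPM (median 95.4) in the low-Lcn2 kidneys and 59.5 to 276 CPM (median 169) in the high-Lcn2 kidneys. Both ends overlapped, and rho was 0.50. CoCM 40 was the third in Lcn2 and the lowest of all 20 in Havcr1. The high-Lcn2 kidney ipABCB5 30 (121.9 CPM) also lay below the low-Lcn2 kidneys CoCM 34 (136.4 CPM) and CoCM 35 (129.6 CPM). Spp1 was 6609 to 8421 CPM (median 6906) at the low end and 7614 to 13170 CPM (median 10230) at the high end, with a rho of 0.77. Spp1 had also chosen the kidneys, so it is no independent check of the label.

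Of 34 tubular injury and dedifferentiation genes, 32 were expressed and 28 had a rho above 0. Separated were 6 higher and 0 lower, beside 2.11% and 2.00% of all expressed genes. The median rho of the list was 0.64, beside 0.10 for all genes. Timp1, an inhibitor of matrix metalloproteinases, was 37.1 to 60.4 CPM (median 49.5) in the low-Lcn2 and 62.6 to 122 CPM (median 87.2) in the high-Lcn2 kidneys, a log2 difference of 0.79 ± 0.15 (SE, n = 7 and 7). Anxa2, a membrane-bound annexin, was 264 to 365 CPM (median 320) against 368 to 542 CPM (median 456). Hbegf, a ligand of the EGF receptor, was 9.75 to 11.5 CPM (median 11.2) against 13.0 to 24.2 CPM (median 16.5). In all 3 genes the lowest high-Lcn2 kidney lay above the highest low-Lcn2 kidney. With TMM and median-ratio scaling none of the 3 was separated, with TPM values Timp1 was not, and with 8 kidneys a side Anxa2 and Hbegf were not.

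The hyaluronan receptor gene Cd44, the galectin gene Lgals3 and the transcription factor gene Sox4 were the other separated members. Cd44 lay close to its border, with 121 to 151 CPM (median 144) at the low end and 151 to 216 CPM (median 178) at the high end. It was separated under none of the 3 other scalings and not with 8 kidneys a side. Clu, which encodes the chaperone clusterin, had the highest rho of the list (0.87) and still overlapped, at 1072 to 1702 CPM against 1575 to 2325 CPM. Tff3 and Prom1, which encode a trefoil peptide and prominin-1, ran the other way with rho of -0.53 and -0.56. Sox9, a transcription factor gene of repairing tubules, had a rho of 0.03. The injury list was therefore not uniform: its summed level had a rho of 0.85 with Lcn2, while Havcr1, Sox9, Tff3 and Prom1 did not follow the order closely.

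In the list of the NF-kappa B and cytokine response, Ccl2 and Icam1 were higher with Lcn2. Ccl2 encodes the monocyte chemoattractant MCP-1, and its level was 20.9 to 37.7 CPM (median 32.7) in the low-Lcn2 and 44.4 to 82.0 CPM (median 54.6) in the high-Lcn2 kidneys. Its log2 difference was 0.85 ± 0.15 and its rho 0.90, and Ctrl 1 was the highest of the 7. Icam1, whose promoter is given above, was 95.5 to 131 CPM (median 108) against 142 to 192 CPM (median 172), a log2 difference of 0.62 ± 0.09 with a rho of 0.89. Both genes separated the ends, also with TMM and median-ratio scaling and with 8 kidneys a side, but not with TPM values.

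Of the 36 expressed members besides Lcn2, these 2 were the separated ones, beside 2.11% of all expressed genes. Of the 36, 35 had a rho above 0 and the median rho was 0.64. The NF-kappa B subunit gene Nfkb2 had a rho of 0.83 and its median was 90.4 CPM at the low end and 125 CPM at the high end. The endotoxin co-receptor gene Cd14 had a rho of 0.80, the apoptosis inhibitor gene Birc3 one of 0.79 and the chemokine gene Ccl7 one of 0.77. Stat3, Osmr and Il1r1, a transcription factor gene and receptor genes of IL-6 family cytokines and IL-1, had rho of 0.14, 0.05 and -0.01. Members of the list thus ranged widely.

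**Figure D3:**
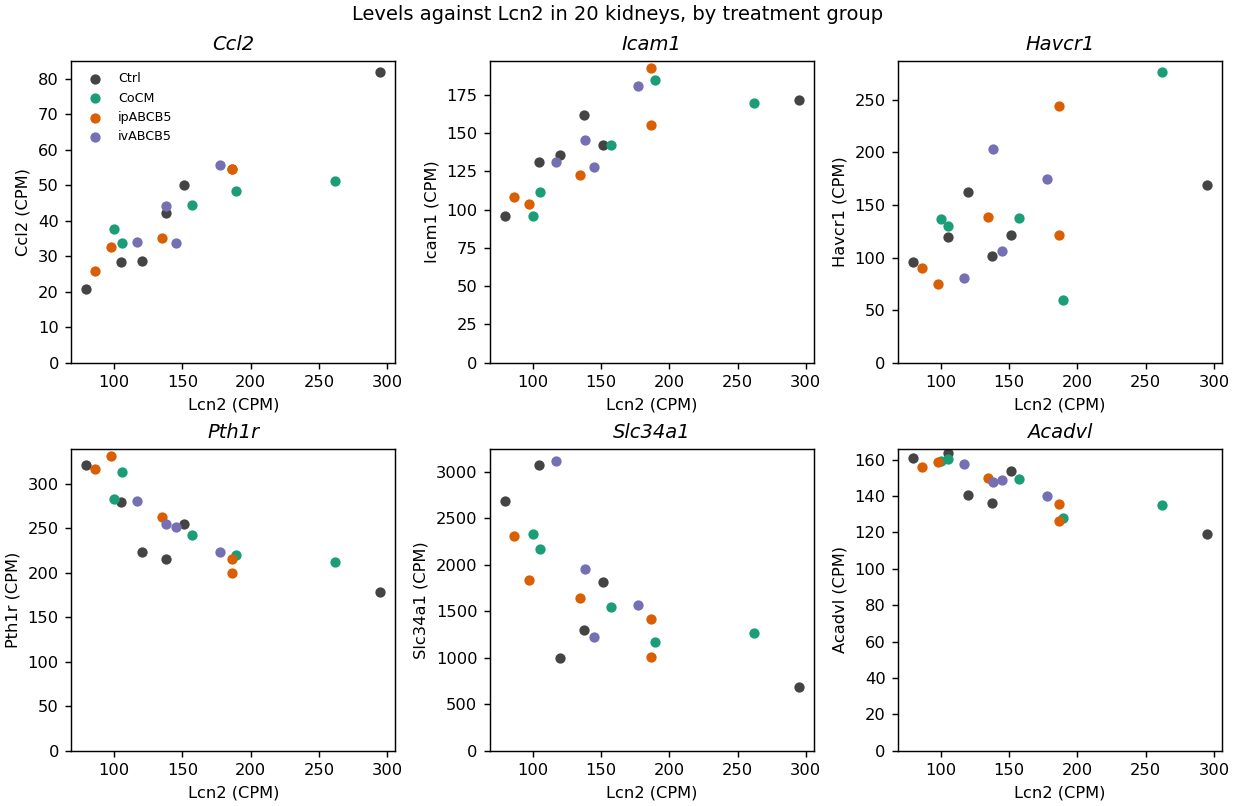
CPM of 6 genes against Lcn2 CPM in each of the 20 kidneys, coloured by treatment group, with all axes of level starting at 0. Ccl2 and Icam1 run upward and Pth1r and Acadvl downward with the colours mixed, Havcr1 scatters, and Slc34a1 is low in several kidneys of the middle.

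Among all genes, the 12 with the highest rho among the separated ones had rho from 0.88 to 0.91 and included Kdelr3, Arpc1b, Marcksl1, Ccl2, Psmb8, Impdh1, Icam1, Shisa5, Dok1, Fscn1 and Rpl3. Kdelr3 encodes a receptor that returns proteins to the endoplasmic reticulum, and its level was 14.9 to 20.9 CPM (median 17.6) against 21.6 to 32.4 CPM (median 26.1). Arpc1b encodes a subunit of the actin-nucleating Arp2/3 complex and was 245 to 305 CPM (median 280) against 327 to 443 CPM (median 367). Marcksl1, a regulator of membrane-bound actin, was 55.7 to 80.3 CPM (median 66.6) against 98.9 to 157 CPM (median 112). Fscn1 encodes the actin-bundling protein fascin and was 34.6 to 56.4 CPM against 63.5 to 97.0 CPM. In each of these genes Ctrl 1 or another high-Lcn2 kidney was the highest of the 20 and the ends stood apart. Arpc1b and Marcksl1 stayed separated under all 3 other scalings, Fscn1 with TMM and median-ratio scaling, and Kdelr3 with TPM values alone.

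Psmb8 encodes an immunoproteasome subunit that cuts peptides for antigen presentation, and it was 64.5 to 96.7 CPM (median 85.6) against 101 to 151 CPM (median 118), without separation under the 3 other scalings. The largest differences among separated genes were those of Rpl7a, Fst, Meltf, Fam167a, Ccl2 and Timp1. Fst, which encodes the activin-binding follistatin, was 4.56 to 7.06 CPM (median 5.49) against 7.37 to 23.2 CPM (median 12.7), a log2 difference of 1.09 ± 0.20. It was not separated with median-ratio scaling or with 8 kidneys a side. The difference of Rpl7a, 1.12 ± 0.61, rested on 1 low-Lcn2 kidney at 1.89 CPM, beside a median of 50.4 CPM at that end.

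Leukocyte markers leaned the same way without separating the ends. All 18 expressed macrophage genes had a rho above 0 (median 0.57), and 0 were separated. Their summed level was 1542 to 2963 CPM in the low-Lcn2 and 2210 to 4032 CPM in the high-Lcn2 kidneys. The lysosomal glycoprotein gene Cd68 had a median of 49.3 CPM at the low end and 87.3 CPM at the high end, and the lysozyme gene Lyz2 one of 1006 and 1818 CPM. The ends overlapped for both.

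For T and NK cell genes 16 of 17 had a rho above 0 (median 0.51, summed level 163 to 324 against 196 to 357 CPM), and for B and plasma cell genes 10 of 10 (median 0.67, 295 to 399 against 376 to 512 CPM). The 10 MHC class II genes, which present antigen to helper T cells, had a median rho of 0.67, and 1 of them, RT1-DOa, was separated (14.3 to 26.86 CPM against 26.95 to 46.9 CPM), though not with TMM or TPM values. RT1 genes are near-identical copies and their counts are uncertain. Since whole tissue was sequenced, more cells of a type and more RNA per cell cannot be told apart here, and the same holds for fewer cells and less RNA.

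Neutrophils are themselves a source of lipocalin-2. Of 16 neutrophil genes 6 were expressed, with 0 separated and a median rho of 0.39. The summed level of all 16 was 9.97 to 39.9 CPM in the low-Lcn2 and 18.9 to 40.7 CPM in the high-Lcn2 kidneys, and the granule protease genes Elane and Ctsg had a median of 0 CPM at both ends. S100a8, which encodes a calcium-binding protein abundant in neutrophils, had a median of 0.48 CPM against 1.46 CPM. Fcnb had the highest rho of the list (0.79), with a median of 4.13 CPM against 7.72 CPM, and Mpo the lowest (-0.40). The part of neutrophils in the Lcn2 level was not tested. Red blood cell genes, whose members include near-identical globin copies, had a median rho of 0.07 and were highest in Ctrl 1, at 10693 CPM summed beside 487 to 3461 CPM in the other 13 kidneys of both ends.

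The interferon-stimulated genes had a median rho of 0.40 with 22 of 22 above 0, and 1 of them, Psmb8, was separated. Acute phase and complement genes had a median rho of 0.52 with 0 of 23 separated. Complement C3 was 51.7 to 130 CPM (median 80.4) against 70.1 to 222 CPM (median 136). A2m, the protease trap alpha-2-macroglobulin, was 4.65 to 8.03 CPM against 5.59 to 31.7 CPM. In both genes the lower high-Lcn2 kidneys reached into the range of the low end.

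All 35 expressed genes of the extracellular matrix and fibroblasts had a rho above 0, with a median of 0.55, and 0 separated the ends. The collagen gene Col1a1 was 152 to 385 CPM (median 302) against 247 to 739 CPM (median 451). Postn, which encodes the matrix protein periostin, was 12.6 to 25.2 CPM against 20.7 to 124 CPM. The matrix metalloproteinase gene Mmp7 was 2.10 to 20.03 CPM against 7.02 to 36.3 CPM, and in the 4 kidneys with low Spp1 it was at most 0.322 CPM. Matrix genes thus differed by large amounts between single kidneys within each end.

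Cell division genes had the highest median rho of the lists, 0.75, with 22 of 24 above 0. Separated and higher were 6 of the 24, beside 2.11% of all expressed genes. They were Ccnb2, Cenpf, Plk1, Ube2c, Cdk1 and Aurka, which encode proteins of the G2 phase and mitosis. Ccnb2, cyclin B2, was 3.83 to 6.10 CPM (median 5.29) against 6.75 to 13.1 CPM (median 7.74), and Cenpf, a kinetochore protein, was 4.51 to 5.29 CPM (median 5.13) against 5.54 to 11.8 CPM (median 8.83). Both were separated at low levels, Ccnb2 also under the 3 other scalings and Cenpf under none of them. Mki67, the standard proliferation marker, overlapped at 13.1 to 23.8 CPM against 15.8 to 34.5 CPM. Cdkn2b, the cell cycle inhibitor p15, was the 1 separated gene of 19 in the p53 and senescence list and was 7.25 to 10.6 CPM (median 9.22) against 11.8 to 30.5 CPM (median 15.5).

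Immediate early genes, which respond within minutes to stress and growth factors, had a rho above 0 in 20 of 20 cases (median 0.58), and 1, Jund, was separated at 275 to 386 CPM against 388 to 574 CPM, though under none of the 3 other scalings. Genes of ER stress and heat shock had a median rho of 0.28 with 0 of 17 separated.

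**Figure D4:**
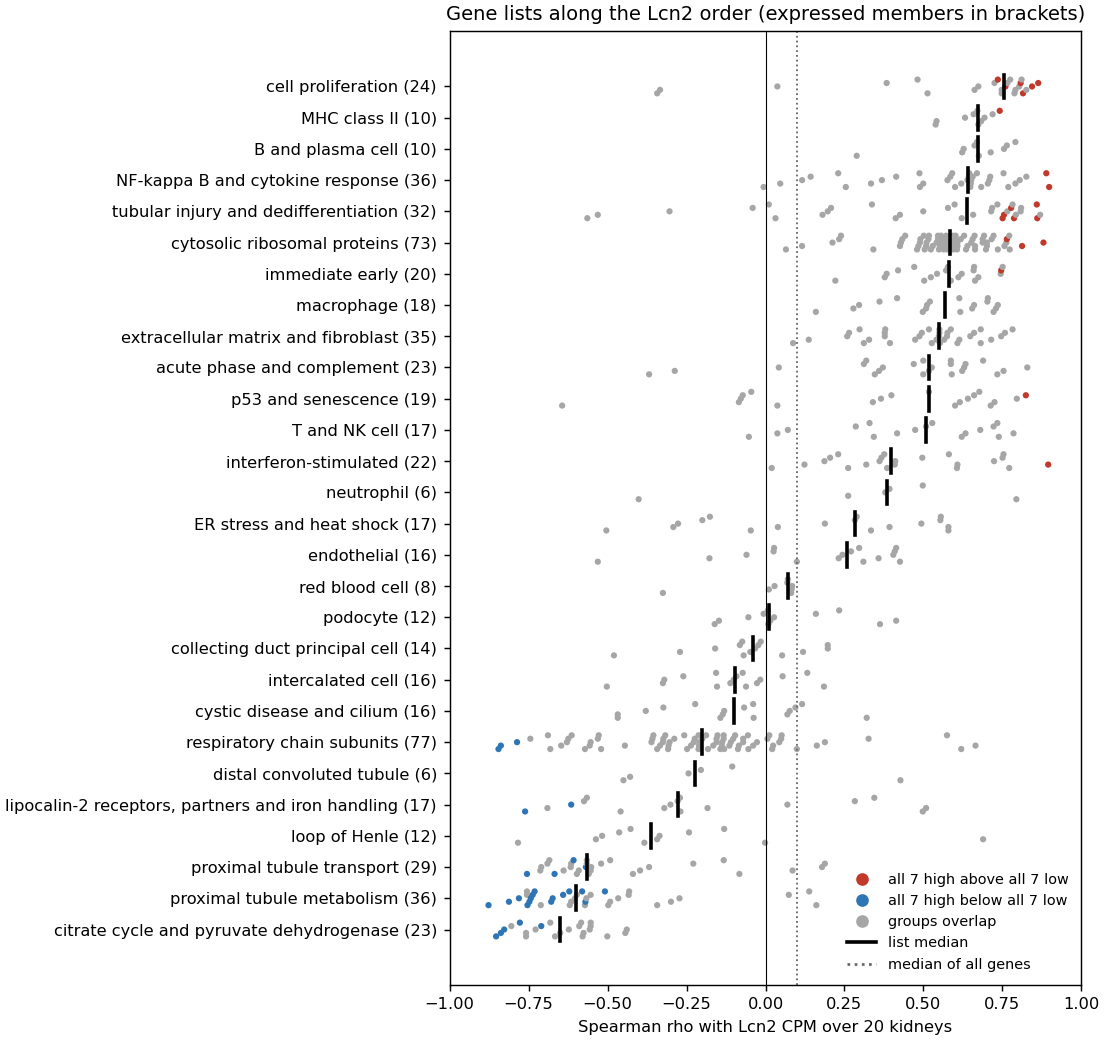
Spearman's rho with Lcn2 for each expressed gene of 28 lists (points), with list medians (bars) and the median of all genes (dotted line at 0.10). Cell division, MHC class II, B cell, NF-kappa B and injury lists have medians of 0.64 to 0.75, while lists of the proximal tubule and the citrate cycle have medians of -0.57 to -0.65.

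Genes of the proximal tubule, the segment that reclaims most of the filtered solutes, ran against Lcn2. Of 29 transport genes 26 had a rho below 0 (median -0.57). Separated and lower were 4, beside 2.00% of all expressed genes, namely Slc34a1, Slc22a6, Aqp1 and Slc13a3. Slc34a1 encodes the sodium-phosphate cotransporter NaPi-IIa and was 1833 to 3120 CPM (median 2326) in the low-Lcn2 and 681 to 1564 CPM (median 1268) in the high-Lcn2 kidneys, a log2 difference of -1.04 ± 0.19. Slc22a6, the organic anion transporter OAT1, was 365 to 655 CPM (median 454) against 166 to 273 CPM (median 243). Both genes had ends that did not overlap.

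Aqp1, the water channel of the proximal tubule and thin limb, was 866 to 1264 CPM against 463 to 831 CPM. Slc13a3, a dicarboxylate transporter, was 368 to 879 CPM against 260 to 346 CPM. Lrp2 encodes megalin, an endocytic receptor that also takes up filtered lipocalin-2, and overlapped at 716 to 1801 CPM against 425 to 810 CPM. Slc5a2, Slc2a2 and Dpep1, which encode the glucose transporters SGLT2 and GLUT2 and a brush border dipeptidase, had rho of 0.09, 0.18 and 0.19, so not all proximal tubule genes ran against Lcn2. Slc34a1, Slc22a6, Aqp1 and Slc13a3 were separated with TPM values as well, but not with TMM or median-ratio scaling nor with 8 kidneys a side. Leaving out any 1 of the 14 kidneys at the ends also ended the separation of Slc22a6 and Slc13a3.

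Metabolic genes of the proximal tubule gave 15 separated and lower members of 36, beside 2.00% of all expressed genes. Of the 36, 33 had a rho below 0, with a median of -0.60. Acadvl, the first enzyme of long-chain fatty acid oxidation in mitochondria, was 156 to 163 CPM (median 159) in the low-Lcn2 and 119 to 150 CPM (median 135) in the high-Lcn2 kidneys, with a rho of -0.88. Its levels at the low end lay within a few CPM of each other. Ehhadh, the peroxisomal bifunctional enzyme, was 93.1 to 147 CPM (median 131) against 42.1 to 71.5 CPM (median 62.3), and Khk, the fructose kinase, was 141 to 220 CPM against 48.9 to 123 CPM. With TMM and median-ratio scaling and with 8 kidneys a side none of these 3 was separated, and with TPM values Acadvl was not.

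The transcription factor gene Hnf4a, which maintains the proximal tubule programme, was separated and lower as well, at 348 to 652 CPM (median 511) against 183 to 331 CPM (median 252). Ppara, the receptor that drives fatty acid oxidation genes, had a rho of -0.62 and overlapped.

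Acmsd, Aox2, Upb1, Mbl1 and Aldh8a1 were among the separated genes with the largest differences. Acmsd, a tryptophan pathway enzyme that diverts substrate from NAD synthesis, was 30.6 to 82.9 CPM (median 53.1) against 9.31 to 19.8 CPM (median 16.4), a log2 difference of -1.77 ± 0.22. Upb1, the last enzyme of pyrimidine breakdown, was 87.6 to 138 CPM against 20.03 to 59.3 CPM. The ends of Acmsd and Upb1 lay well apart with CPM, but with TMM and median-ratio scaling and with 8 kidneys a side none of the 5 genes was separated.

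The 12 lower genes with the strongest correlation had rho of -0.84 to -0.91. They were Sgk2, Pth1r, Adhfe1, Nudt12, Suox, Acadvl, Hspa9, Ptcd1, Itfg1, Dlst, Ndufs1 and Osbpl1a. Pth1r, the receptor through which parathyroid hormone controls phosphate uptake, was 280 to 331 CPM (median 313) against 178 to 243 CPM (median 216), a log2 difference of -0.51 ± 0.07. Sgk2, a serum- and glucocorticoid-regulated kinase, was 31.7 to 39.8 CPM (median 37.2) against 19.6 to 31.5 CPM (median 22.3). Its ends were separated by a narrow margin and overlapped with TMM. Those of Pth1r overlapped with TMM and median-ratio scaling and with 8 kidneys a side.

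Several of the 12 encode mitochondrial proteins. Hspa9, the chaperone mortalin, was 515 to 620 CPM (median 538) against 367 to 469 CPM (median 431). Dlst, a subunit of the 2-oxoglutarate dehydrogenase of the citrate cycle, was 291 to 359 CPM (median 325) against 237 to 264 CPM (median 260). Ndufs1, the largest subunit of respiratory complex I, was 249 to 296 CPM (median 265) against 182 to 243 CPM (median 192). Suox, the mitochondrial sulfite oxidase, was 105 to 134 CPM against 80.4 to 100 CPM. These 4 genes were separated with TMM, 1 of them (Ndufs1) with median-ratio scaling and 0 with TPM values.

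Mitochondrial lists were drawn up after these values had been seen and are given as description. All 23 genes of the citrate cycle and pyruvate dehydrogenase had a rho below 0 (median -0.65). Of them 5 were separated and lower, beside 2.00% of all expressed genes, namely Dlst, Pc, Pdha1, Sdha and Sucla2. Of 77 respiratory chain subunits 63 had a rho below 0 (median -0.20). Separated and lower were 3 of the 77, beside 2.00% of all expressed genes, namely Ndufs1, Sdha and Atp5f1a. Sdha, shared by both lists as a subunit of succinate dehydrogenase, was 535 to 612 CPM against 394 to 516 CPM. The median rho of the respiratory chain list was -0.52 with TPM values.

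The list of lipocalin-2 receptors, partners and iron handling gave 2 separated and lower genes of 17, beside 2.00% of all expressed genes. Its median rho was -0.28. Aco1, the cytosolic aconitase that doubles as an iron-responsive RNA-binding protein, was 208 to 307 CPM (median 223) against 134 to 172 CPM (median 154). Bdh2, which makes a mammalian siderophore that lipocalin-2 binds, was 47.9 to 64.9 CPM (median 54.0) against 32.03 to 45.5 CPM (median 37.2). Slc22a17, the cell surface receptor proposed for lipocalin-2, had a rho of 0.07, and Mmp9, whose protein forms a complex with it, one of 0.28. Lrp2 and Cubn, which encode the endocytic receptors megalin and cubilin and also stand in this list, had rho of -0.69 and -0.57 and overlapped. Aco1 was not separated under any of the 3 other scalings and Bdh2 with TPM values alone.

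Segments beyond the proximal tubule varied less clearly with Lcn2. Loop of Henle genes had a median rho of -0.36 with 11 of 12 below 0 and 0 separated. Egf, the growth factor precursor of the distal tubule, had the lowest rho of the list (-0.78) and was 1144 to 1981 CPM (median 1584) against 527 to 1503 CPM (median 709). Umod, the urinary glycoprotein uromodulin, was 1634 to 5546 CPM against 1109 to 3530 CPM. Ends overlapped for both.

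The median rho was -0.22 for the distal convoluted tubule, -0.04 for principal cells, -0.10 for intercalated cells and 0.01 for podocytes, and it was 0.26 for endothelial genes. None of these lists had a separated gene. The medians changed sign between settings for principal cells (-0.16 to 0.16), intercalated cells (-0.21 to 0.17) and podocytes (-0.08 to 0.21), and likewise for red blood cell genes (-0.11 to 0.12), so no direction is given for them. Cystic disease and cilium genes had a median rho of -0.10, with a range of -0.28 to 0.05 over settings. Anks6, the gene mutated in this line, was 56.2 to 71.2 CPM against 49.6 to 66.9 CPM with a rho of -0.47.

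**Figure D5:**
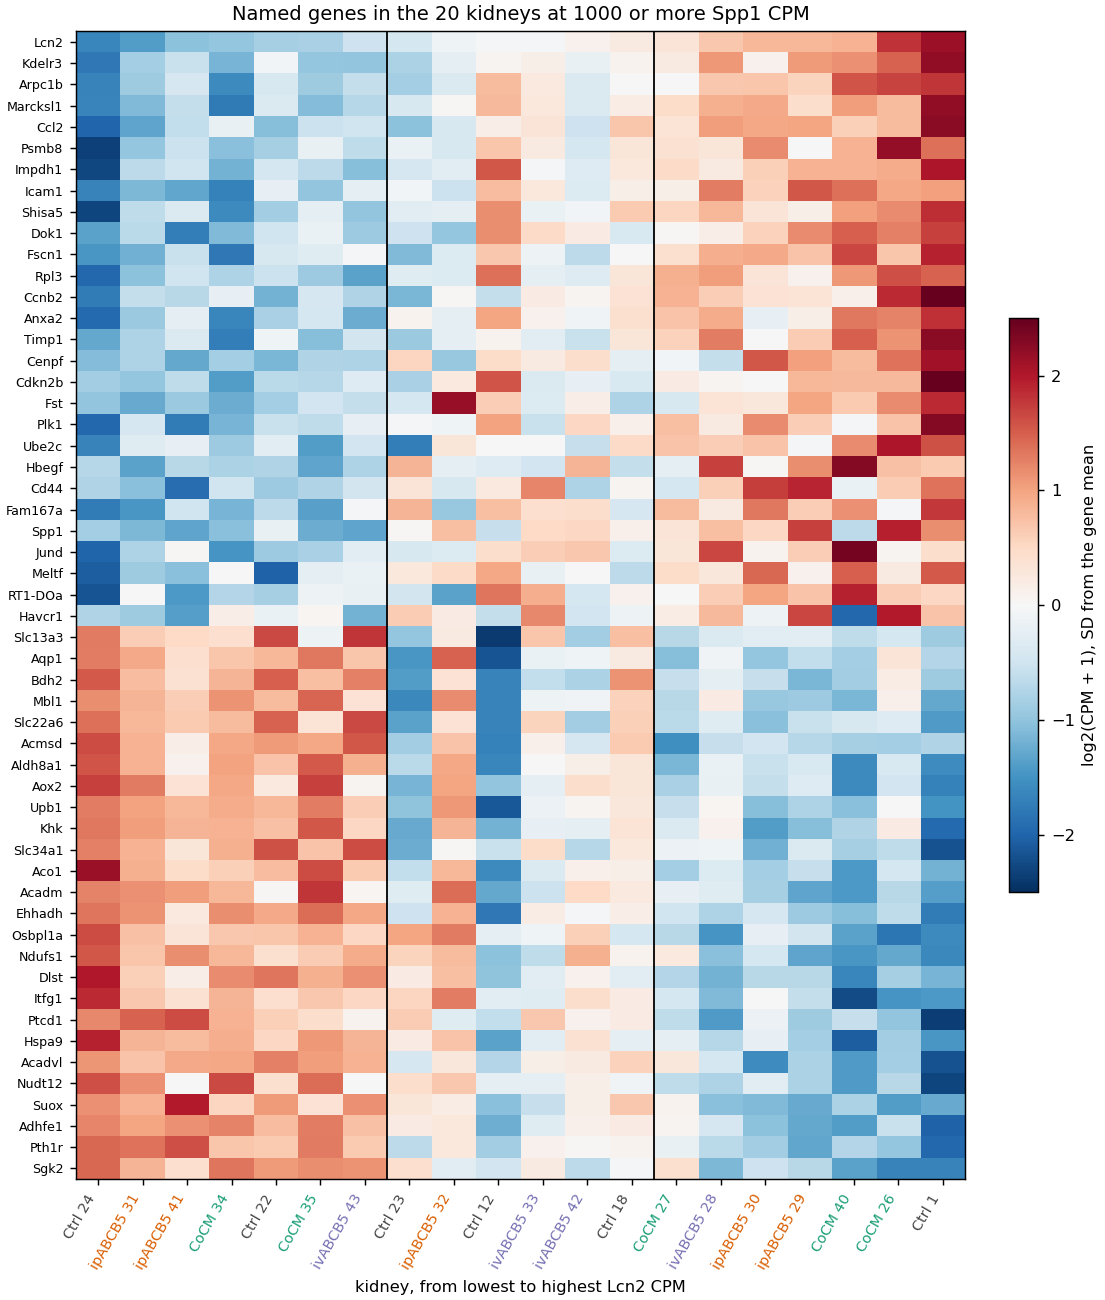
Levels of the reported genes of the naming rule other than Rpl7a (rows, ordered by rho) in the 20 kidneys (columns, from lowest to highest Lcn2, names coloured by treatment group), each as log2(CPM + 1) in SD from the gene's mean. The outer 7 columns on each side differ by the choice of genes, while in the middle Ctrl 12 and Ctrl 23 are blue for proximal tubule genes and ipABCB5 32 is red.

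The 6 middle kidneys were used in the correlations but not in the choice of separated genes. Summed over the 29 proximal tubule transport genes, the level was 4366 CPM in Ctrl 12 and 5340 CPM in Ctrl 23, inside the range of the high-Lcn2 kidneys (4229 to 8255 CPM). It was 12196 CPM in ipABCB5 32, inside the range of the low-Lcn2 kidneys (9503 to 15660 CPM). The other 3 middle kidneys held 7716 to 9517 CPM. Lcn2 in these 6 kidneys was 120.0 to 151.4 CPM, so in the middle the order by Lcn2 and the level of proximal tubule transcripts did not coincide.

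The 4 kidneys with Spp1 under 1000 CPM had no part in the order. Of the 261 genes other than Lcn2 that were higher with Lcn2, 219 were lower in each of these 4 kidneys than in every low-Lcn2 kidney, as were 24.9% of all expressed genes. Of the 248 lower genes, 123 were higher in each of the 4 than in every low-Lcn2 kidney, as were 4.24% of all expressed genes. Pth1r, for example, was 441 to 517 CPM in the 4 kidneys, above the 280 to 331 CPM of the low end. Ccl2 was 2.87 to 6.77 CPM there and Havcr1 3.39 to 14.9 CPM, below every kidney of the 20. The 4 kidneys were chosen by their Spp1 and had animal numbers 36 to 39. The parts of the treatments and of the genotype in this difference were not tested.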

How the data were processed

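Whole left kidneys of 24 male rats of the PKD/Mhm (Cy/+) line were sequenced on the BGISEQ-500 platform, with 1 RNA library per animal and 6 animals per group, and groups were taken from the sample labels. The animal number named each sample, and no number occurred in more than 1 group. For each animal the authors deposited estimated counts per Entrez gene, which were not normalized and were whole numbers in 86.5% to 87.4% of the values, within a tolerance of 1e-06. The authors also deposited TPM values, which correct for transcript length and for the depth of the library. The submitters' processing notes name Trim Galore 0.6.4, kallisto 0.4.6 and the genome build rn6, and human gene models appear in the methods of the study. The annotation and the strand setting were not given in the sources used here, so overlapping and antisense genes cannot be told apart. Symbols for 17179 of 17334 identifiers came from a RefSeq table of GRCr8, and no coordinates of rn6 are given.

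Each count was divided by the library total and multiplied by 1000000 (counts per 1000000 counts, CPM). Kidneys with at least 1000 Spp1 CPM were ordered by Lcn2 CPM, 7 were taken at each end, and genes with a mean of at least 1 CPM over the 20 kidneys were described by Spearman's rho with Lcn2, by the difference in mean log2(CPM + 1) with its SE from the spread within the ends, and by whether the ends overlapped. Differences on this scale understate those of low genes. Members and lists were chosen with earlier results of these data known, and 3 further lists (citrate cycle, respiratory chain, ribosomal proteins) were added after the values were seen. Named genes were Lcn2, Spp1 and Havcr1, then, among separated genes with an established symbol and a mean of at least 5 CPM, the 12 with the largest absolute rho and the 6 with the largest difference in each direction, and in each list up to 4 separated members with the largest absolute rho and the members that define the list. Further members are named from the lists after their values were seen, and some genes that this rule names are not reported here.

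Treatment groups were compared on counts rounded to whole numbers with the quasi-likelihood F-test of edgeR 4.0.16 (R 4.3.3, filterByExpr, TMM, all 24 samples, Benjamini-Hochberg adjustment, threshold 0.05), with DESeq2 1.42.0 as an alternative, and Lcn2 with two-sided exact permutation tests, whose smallest p is 0.00216 with 6 against 6. Correlations of Lcn2 with library measures were tested with 100000 permutations. The labels name separate animals as replicates. No 2 libraries of a group agreed within counting noise, since chi-square divided by its degrees of freedom was at least 10.3. A floor of 3 counts in the smallest of the 20 libraries is 0.294 CPM, which covers counting error only. The gene and group calculations were tested on simulated data. Alternatives were other scalings, filters on low values, 6 or 8 kidneys at each end, centring on the treatment group and leaving out kidneys.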

Additional observations from a re-analysis of the deposited data

Results flagged for a closer look

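In 32 checks of 8 measures within the 4 treatment groups of the 20 kidneys, 3 samples stood apart beyond Dixon's 95% critical value. Chance flags about 1 group in 20, or 1.6 of 32. This rate does not hold for the treated groups, from which the limit on Spp1 had removed kidneys. No Ctrl kidney had been removed. Lcn2 in Ctrl 1 was 294.9 CPM while the other 5 Ctrl kidneys held 79.4 to 151.4 CPM. Spp1 in ivABCB5 43 was 6609 CPM while the other 3 ivABCB5 kidneys of the set held 9694 to 10230 CPM. The limit on Spp1 had removed ivABCB5 36 (546 CPM) and ivABCB5 37 (542 CPM), so this value is not read as apart. The total count of Ctrl 23 was 10405757 while the other 5 Ctrl libraries held 13320840 to 14125457.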

How the results depend on the processing

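The counts of separated genes depended on which kidneys were taken and how they were scaled, and the cause was not tested. Against 262 higher genes, TMM-scaled CPM gave 105 (75 of them shared), median-ratio size factors 141 (46 shared), TPM values 170 (93 shared), 6 kidneys a side 553, 8 a side 100 and centring on each treatment group 413. Against 248 lower genes, TMM gave 47, median-ratio size factors 63, 6 a side 398, 8 a side 19 and centring 86, while TPM gave 234. A pair of further settings was chosen after seeing the data. Without Ctrl 1 and CoCM 26, 109 genes were higher and 84 lower, and with the 14 treated kidneys alone, 5 against 5, 588 were higher and 365 lower. No filter on low values and a mean of at least 5 CPM changed neither count by more than 1.5 times.

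Leaving out 1 kidney and refilling the ends gave 148 to 262 higher and 40 to 248 lower genes. The higher count changed by more than 1.5 times without Ctrl 24 (148), ipABCB5 31 (153) or CoCM 34 (164). The lower count did so without any of the 14 kidneys at the ends. It was 40 without Ctrl 24, 42 without CoCM 34, 42 without ipABCB5 31, 44 without ivABCB5 43, 46 without CoCM 35, 48 without Ctrl 22 and 61 without ipABCB5 41, where the refill was Ctrl 23, and 97 to 122 without a high-Lcn2 kidney, namely Ctrl 1 (97), CoCM 40 (97), ivABCB5 28 (99), ipABCB5 30 (105), ipABCB5 29 (106), CoCM 26 (110) and CoCM 27 (122).

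The sign of rho did not turn for any of the 55 genes of the naming rule besides Lcn2 and Spp1 under these settings. The jackknife error of each rho was computed from its values with single kidneys left out. Of 1649 values, 1604 lay within it, but many were those same values, so their agreement was close to certain. Settings that changed only the filter or the number of kidneys at the ends left rho as it was. The count of 1604 is therefore no measure of how stable rho was. Of the 27 genes of that rule that were higher and the 27 that were lower, 5 and 0 stayed separated under all 3 other scalings, and 7 and 6 under none of them. Median rho kept its sign for 23 of 28 lists. The median difference of all genes was 0.06 on the log2 scale with CPM and 0.00 with TMM.

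Between treatments, edgeR called 0 genes with DESeq2's size factors (628 at an unadjusted p under 0.05) and without a filter (687). DESeq2's likelihood ratio test called 10 (949). Over the 20 kidneys no such test is given, because Spp1 had chosen the kidneys and removed treated ones only. The difference in Lcn2 from Ctrl turned to 0.17 for CoCM and 0.076 for ivABCB5 over the 20 kidneys, where no test applies because Spp1 had chosen the kidneys. Over all 24 the exact permutation p ranged from 0.273 to 0.682 with CPM and TPM values. No paired analysis was possible because no animal number occurred in more than 1 group. A floor of 3 counts is 0.294 CPM in the smallest of the 20 libraries, and the part of depth in the gene differences was not tested.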

Other observations

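Further genes were looked at after their values were seen. Of genes of MHC class I presentation, which displays peptides to cytotoxic T cells, B2m, RT1-A2 and Tapbp were picked because they were separated. B2m, the light chain, was 2120 to 2696 CPM (median 2471) in the low-Lcn2 and 2722 to 3705 CPM (median 3161) in the high-Lcn2 kidneys, with a rho of 0.82. RT1-A2, a heavy chain gene, was 55.3 to 76.1 CPM against 78.0 to 93.6 CPM, and Tapbp, the peptide-loading factor tapasin, was 120 to 140 CPM against 146 to 184 CPM. The ends did not overlap for these 3 genes, although counts of RT1 heavy chain genes are uncertain because the copies are alike. Tap1, a subunit of the peptide transporter, overlapped at 58.9 to 94.9 CPM against 89.4 to 131 CPM, as did the immunoproteasome gene Psmb9 at 46.2 to 69.7 CPM against 60.6 to 97.6 CPM.

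All 73 expressed genes of cytosolic ribosomal proteins had a rho above 0 with Lcn2 (median 0.58). Separated and higher were 3 of the 73, beside 2.11% of all expressed genes, namely Rpl3, Rpl7a and Rplp0. Rplp0 was 1224 to 1580 CPM in the low-Lcn2 and 1589 to 2129 CPM in the high-Lcn2 kidneys. The median rho of this list stayed between 0.39 and 0.65 over the settings tried. Ribosomal protein genes have many processed copies, so their counts are uncertain.

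The largest differences of all belonged to genes whose ends overlapped. Slc7a13, an amino acid transporter of the last part of the proximal tubule, was 60.3 to 1339 CPM (median 756) in the low-Lcn2 and 7.86 to 294 CPM (median 45.9) in the high-Lcn2 kidneys, a log2 difference of -3.07 ± 0.98. Slco1a1, an organic anion transporter, was 17.2 to 177 CPM against 3.11 to 48.7 CPM, and Rbp4, the retinol carrier, was 1.68 to 84.2 CPM against 0.243 to 21.8 CPM.

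The NF-kappa B motif was found in 17.1% of the 216 promoters of higher genes and 6.93% of the 202 promoters of lower genes in the RefSeq table, beside 9.88% of the 10042 promoters of expressed genes. The shares were 6.48%, 8.42% and 6.75% for the STAT motif and 7.41%, 12.4% and 8.79% for the C/EBP motif. Genes that overlap in position or share copies are not independent, and the shares are given without a test.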
